A study of Mus musculus with 2 samples.

Results

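The 34 genes described here make fatty acids and cholesterol: 5 of fatty acid synthesis, 7 of elongation and desaturation, 6 of the mevalonate pathway, 10 of the sterol steps, 5 regulators of the sterol-sensing system and 1 sterol carrier. They were taken as a list of named genes and all 34 were found among the 30905 genes measured. Their transcripts were counted by droplet single-cell RNA sequencing (10x Genomics, 3′ V3 chemistry) in leukocytes carrying CD45, sorted from colorectal tumor tissue of male C57BL/6 mice. The fasting-mimicking diet (FMD) group and the ad libitum group had 1 library each, and each library was pooled from 4 mice. Both groups received the colon carcinogen azoxymethane at 12 mg/kg and 3 cycles of 2.5% dextran sodium sulfate, a colitis-inducing agent, for 7 days followed by 14 days of water, and the diets began with cycle 2. The labels give neither the composition of the diet nor the age of the mice, and their extraction text also speaks of normal colon, so that the libraries were taken as tumor from their titles and tissue label. With 1 library per diet there is no replicate, no p-value can be given, and diet cannot be told apart from any other difference between the libraries.

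The FMD library kept 4581 of 5877 cell barcodes with a median of 5727 unique molecular identifiers (UMIs, counts of single transcripts), and the ad libitum library kept 4846 of 6089 barcodes with a median of 5499 UMIs. A UMI of Ptprc, which encodes CD45, was found in 93.5% of the FMD cells and 92.0% of the ad libitum cells. The libraries shared 7 barcodes. Markers of other cells also differed, with 3712 erythroid UMIs in FMD and 79 in ad libitum cells, and 408 and 1086 epithelial UMIs, and their part in the results was not tested outside the macrophage or dendritic-like class. The cells formed 22 clusters, which were placed in 13 classes named by marker genes, with 101 FMD cells and 92 ad libitum cells unnamed. B-like cells were the largest class with 2747 FMD cells and 3076 ad libitum cells, and each of the 12 classes that had 20 cells or more per library is used for levels. Ratios between diets are given in detail for the 6 classes that had 100 cells or more per library. Levels are UMIs per 1000000 UMIs outside immunoglobulin and mitochondrial genes (CPM), summed over the cells of a class. Brackets hold exact 95% intervals, which cover counting error only and neither mice nor libraries. In a 3′ assay a transcript is tagged once at its end, and capture differs between genes, so levels of different genes are set side by side only as counts.

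Cells build fatty acids from acetyl-CoA, which Acly and Acss2 supply, Acaca carboxylates and Fasn assembles. Elongases of the Elovl family lengthen the chains and desaturases of the Scd and Fads families add double bonds. Cholesterol is made from the same acetyl-CoA by way of mevalonate and squalene. When sterols in the endoplasmic reticulum are scarce, the escort protein encoded by Scap carries the SREBP factors, encoded by Srebf1 and Srebf2, to the Golgi, where they are cut and released to switch on these genes, while the Insig proteins hold Scap back when sterols are plentiful. Lymphocytes draw on both pathways for new membranes when they divide.

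SREBP factors are known to act beside NF-Y, which binds CCAAT, and at sterol elements or at the E-box CACGTG. RefSeq promoter windows of build GRCm38.p6, from 250 bases before to 50 after the gene start, were at hand for 27 of the 34 members. The windows of 4 genes on which the results below turn are shown: Hmgcs1, Insig1 and Cyp51, whose FMD levels were above the ad libitum ones in several T-like classes, Cyp51 being lower in regulatory T-like cells, and Elovl6, which was lower in regulatory and mixed T-like cells. Capitals mark CCAAT or its reverse ATTGG, the sterol element TCACNCCAC, and CACGTG. The windows lie at chr13:119690101-119690400 on the plus strand for Hmgcs1, chr5:28071162-28071461 on the plus strand for Insig1, chr5:4104648-4104947 on the minus strand for Cyp51, and chr3:129532136-129532435 on the plus strand for Elovl6.
Hmgcs1: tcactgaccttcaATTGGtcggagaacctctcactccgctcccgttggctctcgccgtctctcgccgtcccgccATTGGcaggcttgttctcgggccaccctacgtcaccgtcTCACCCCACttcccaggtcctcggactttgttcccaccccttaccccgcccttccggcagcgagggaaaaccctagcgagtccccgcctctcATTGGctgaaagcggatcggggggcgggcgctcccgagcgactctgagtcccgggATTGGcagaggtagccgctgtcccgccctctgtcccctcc
Insig1: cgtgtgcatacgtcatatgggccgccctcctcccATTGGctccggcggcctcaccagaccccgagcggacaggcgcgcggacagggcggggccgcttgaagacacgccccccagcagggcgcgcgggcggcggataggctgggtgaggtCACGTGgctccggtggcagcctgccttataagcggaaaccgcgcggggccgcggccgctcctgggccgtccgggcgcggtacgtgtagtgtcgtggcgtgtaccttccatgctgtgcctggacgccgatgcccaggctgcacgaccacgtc
Cyp51: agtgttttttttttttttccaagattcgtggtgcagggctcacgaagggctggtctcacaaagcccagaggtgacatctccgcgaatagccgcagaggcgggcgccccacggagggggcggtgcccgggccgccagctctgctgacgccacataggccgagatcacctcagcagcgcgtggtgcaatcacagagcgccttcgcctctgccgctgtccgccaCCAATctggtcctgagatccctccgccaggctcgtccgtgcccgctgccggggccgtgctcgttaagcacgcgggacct
Elovl6: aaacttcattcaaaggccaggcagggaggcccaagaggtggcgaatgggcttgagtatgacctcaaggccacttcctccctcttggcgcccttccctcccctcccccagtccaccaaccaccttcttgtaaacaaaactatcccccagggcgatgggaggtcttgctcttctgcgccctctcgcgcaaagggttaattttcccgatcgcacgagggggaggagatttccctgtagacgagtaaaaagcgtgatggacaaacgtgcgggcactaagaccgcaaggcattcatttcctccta

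The Hmgcs1 window held 1 sterol element and 4 CCAAT motifs, the Insig1 window 1 CCAAT motif and 1 CACGTG, the Cyp51 window 1 CCAAT motif, and the Elovl6 window none of the 3. A gene was counted if any of its windows held a match on either strand. CCAAT was present in 23 of the 27 members (85.2%), against 41.1% of the 27025 genes with a window. Of the other genes of the pathway with a window, 19 of 31 (61.3%) held it. CACGTG was present in 6 of 27 members (22.2%), against 8.09% of all genes with a window. It was in 6 of 31 (19.4%) of the other genes of the pathway. TCACNCCAC was present in 1 of 27 members, Hmgcs1, and in 1.44% of all genes with a window. Looser or longer spellings of the sterol element, which overlap it, were also counted, with the share of all genes with a window in brackets. The 10-letter element of the LDL receptor gene was in 0 of 27 (0.0999%). CACNCCAC was in 2 (7.12%, and 7 of the 31 other genes of the pathway), TCACNCCA in 3 (4.97%), TCANNNCAC in 7 (15.05%) and ATCACNNNA in 7 (11.5%). The 7 members without a window were Scd1, Scd2, Fads1, Sqle, Fdft1, Fdps and Stard4. A match describes the letters only, and the lack of one says only that these letters are not in the window.

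Of the 34 members, 31 had at least 100 UMIs over all kept cells. The other 3 were Me1, a source of NADPH for fatty acid synthesis, with 1 UMI in the FMD library and 3 in the ad libitum library, Fads1 with 51 and 43 UMIs, and Fads2 with 18 and 46 UMIs, the last pair being the front-end desaturases of polyunsaturated fatty acids. The highest was Scd1, a desaturase that turns saturated into monounsaturated fatty acids, at 478 CPM in FMD cells and 466 CPM in ad libitum cells. The next were Srebf2 at 153 and 143 CPM, Insig1 at 88.1 and 81.6 CPM, Elovl5 at 64.5 and 52.5 CPM, Msmo1 at 55.0 and 54.4 CPM and Fdps at 54.5 and 50.6 CPM, in the same order of libraries. Thus the leading genes were a desaturase, the sterol regulator and its brake, an elongase and enzymes of the sterol branch. For 14 of the 31 members the same class was highest in both libraries, and for 5 of these, Scd1, Elovl5, Elovl6, Pmvk and Insig1, the interval of the highest class lay above that of the second in both.

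**Figure D1:**
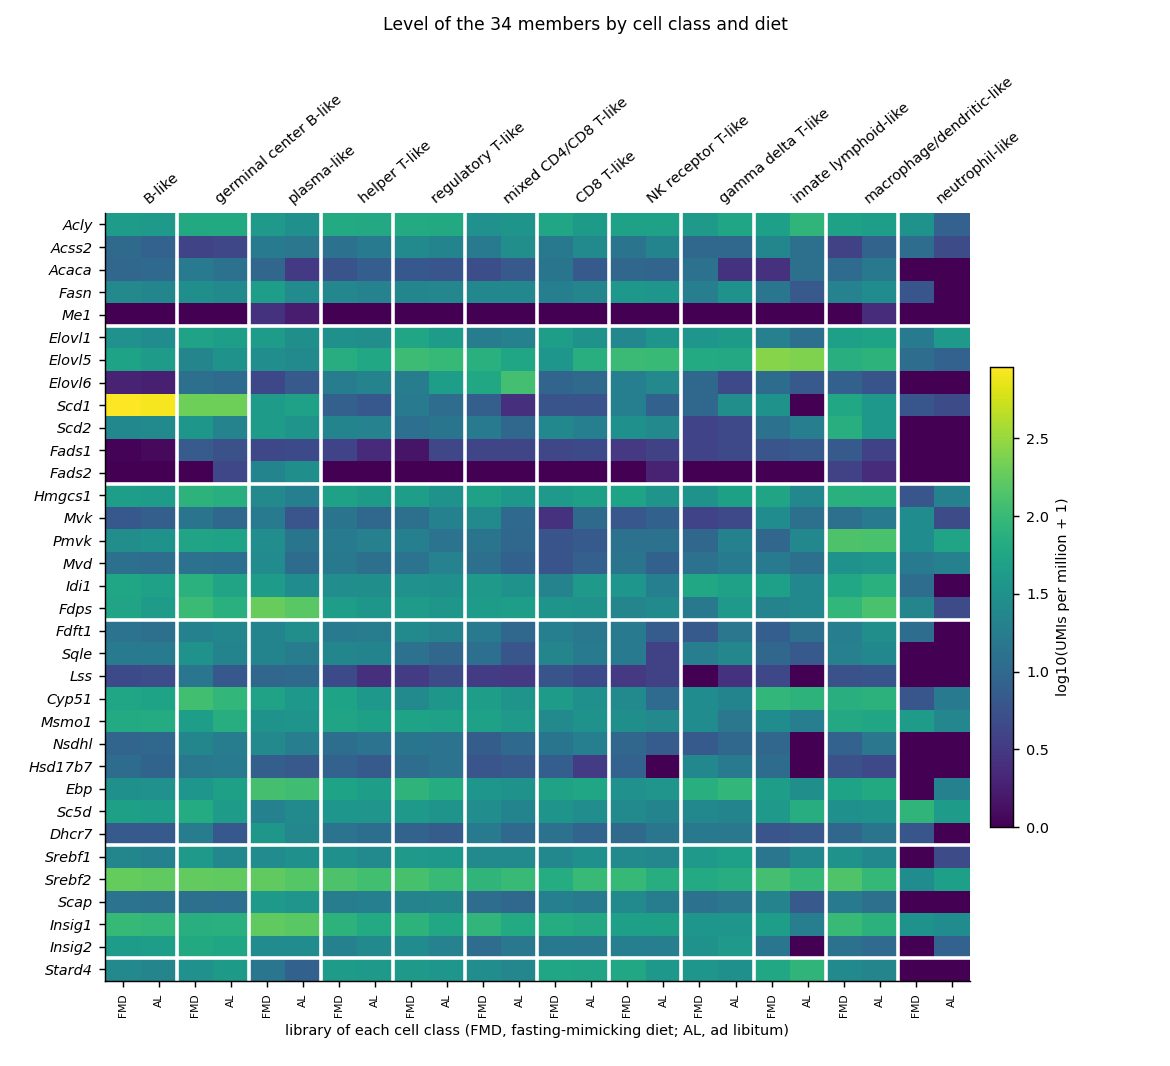
Color shows the level of each of the 34 members as log10(CPM + 1), with genes in rows grouped by role and, in columns, the FMD library left of the ad libitum library of each of the 12 classes. Scd1 in B-like cells stands out at 910 CPM in FMD and 837 CPM in ad libitum cells, Elovl5 in innate lymphoid-like cells at 265 and 242 CPM, and Pmvk in macrophage or dendritic-like cells at 134 and 129 CPM.

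Scd1 was the most uneven of the members. Its transcripts made up 47.3% of all member UMIs in FMD B-like cells and 46.8% in ad libitum B-like cells, and B-like cells held 94.9% of all Scd1 UMIs in the FMD library and 96.4% in the ad libitum library. After thinning each cell to 1000 UMIs, 54.2% of FMD B-like cells [52.3 to 56.1] and 50.6% of ad libitum B-like cells [48.9 to 52.4] kept an Scd1 UMI, against 0 of 84 FMD and 0 of 110 ad libitum CD8 T-like cells. Before thinning the shares in B-like cells were 94.2% and 91.8%, at median depths of 5211 and 5064.5 UMIs in B-like cells and 7114.5 and 7209.5 UMIs in CD8 T-like cells. Germinal center B-like cells had 203 CPM in FMD and 199 CPM in ad libitum cells, and plasma-like cells 42.8 and 48.5 CPM. The level was thus highest in B-like cells, lower in the germinal center class and lower again in plasma-like cells in both libraries. Helper T-like cells had 7.13 CPM in FMD and 5.50 CPM in ad libitum cells, with 1.0 and 0.5 Scd1 UMIs per UMI of Cd79a, a B cell gene, against 0.567 and 0.512 in B-like cells. How much of that low T-like signal is free RNA was not tested.

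Within the B-like class Scd1 was lowest among the 5 largest clusters in the one led by Apoe and Bhlhe41, at 670 CPM in FMD and 563 CPM in ad libitum cells, and in the one led by the heat shock genes Hspb1 and Hspa1a, at 696 and 651 CPM. It reached 1098 and 1008 CPM in the cluster it leads itself, 1144 and 1170 CPM in the cluster led by B3gnt7 and Scd1, and 1027 and 966 CPM in the cluster led by the activation genes Egr3 and Myc. Members were left out of the genes used for clustering, so their levels did not set these clusters. The paralog Scd2 behaved differently, with 22.9 CPM in FMD and 24.3 CPM in ad libitum B-like cells and its highest level, 70.5 and 37.2 CPM, in macrophage or dendritic-like cells. There were 39.7 Scd1 UMIs per Scd2 UMI in FMD B-like cells and 34.4 in ad libitum ones, and 0.803 and 0.981 in macrophage or dendritic-like cells. How much of the Scd1 in macrophage or dendritic-like cells is free RNA was not tested.

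**Figure D2:**
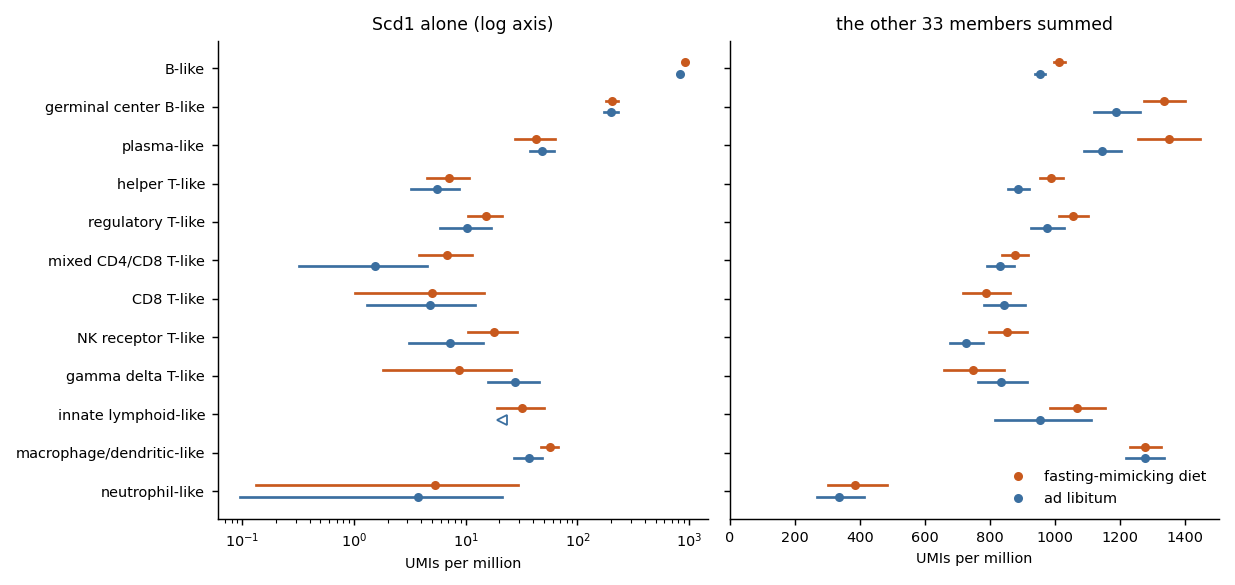
Points are levels in CPM with exact 95% counting intervals for FMD (upper) and ad libitum (lower) in each of the 12 classes. Scd1 alone is on a log axis on the left and the other 33 members summed are on a linear axis on the right. The open triangle marks the upper end of the 95% counting interval for a class with no Scd1 UMI. Scd1 is at 910 and 837 CPM in B-like cells, 4.95 and 4.76 CPM in CD8 T-like cells and 6.86 and 1.55 CPM in the mixed CD4 and CD8 T-like class, while the other members summed to 746 CPM or more in every class except neutrophil-like cells in FMD, and to 725 CPM or more in ad libitum.

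Without Scd1 the remaining 33 members summed to 1349 CPM in FMD and 1144 CPM in ad libitum plasma-like cells, 1335 and 1189 CPM in germinal center B-like cells, and 1277 and 1275 CPM in macrophage or dendritic-like cells. These 3 classes were the highest in both libraries. The ad libitum value of macrophage or dendritic-like cells includes 1 cell, described below, with most epithelial UMIs of the class. That cell held 289 of the 1870 member UMIs of its class, Scd1 included, and the level without it is not given. B-like cells had 1013 CPM in FMD and 952 CPM in ad libitum cells, regulatory T-like cells 1056 and 976 CPM, and CD8 T-like cells 787 and 843 CPM. The lowest class was the neutrophil-like one, with 385 and 335 CPM. Of the germinal center B-like cells, 7 in FMD and 10 in ad libitum held transcripts of Cd3e, a T cell gene, and 5 and 18 held none of Cd79a. Without those cells the 33 members summed to 1334 CPM in FMD and 1237 CPM in ad libitum germinal center B-like cells. Their mevalonate and sterol genes alone summed to 719 CPM in FMD and 636 CPM in ad libitum cells, against 713 and 600 CPM with all cells.

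Among the elongases, Elovl5, which lengthens polyunsaturated chains, was highest in innate lymphoid-like cells at 265 CPM in FMD and 242 CPM in ad libitum cells. It had 106 and 95.2 CPM in regulatory T-like cells, 103 and 99.8 CPM in the T-like class with natural killer receptors, and 51.3 and 41.7 CPM in B-like cells. Elovl6, which carries saturated chains from palmitate to stearate, had its highest level where Scd1 was low, with 59.0 and 119 CPM in the T-like class that mixes CD4 and CD8 cells and 0.900 and 0.826 CPM in B-like cells. Elovl1, which makes very long saturated chains, was spread more evenly, with 53.6 and 42.1 CPM in regulatory T-like cells, 45.8 and 51.2 CPM in macrophage or dendritic-like cells and 30.8 and 26.8 CPM in B-like cells. Fads2 was highest in plasma-like cells, at 20.5 CPM in FMD and 28.9 CPM in ad libitum cells, and had no UMI in B-like cells of either library. Fads1 rested on few UMIs, with 6.03 and 4.40 CPM in germinal center B-like cells and 5.84 and 2.81 CPM in macrophage or dendritic-like cells.

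Of the genes that make palmitate, Acly had 62.5 CPM in FMD and 61.6 CPM in ad libitum germinal center B-like cells, 63.8 and 59.6 CPM in helper T-like cells and 63.7 and 62.2 CPM in regulatory T-like cells. Fasn, the fatty acid synthase, was highest in FMD at 44.5 CPM in plasma-like cells, against 26.0 CPM in ad libitum ones, and at 37.1 and 35.4 CPM in the T-like class with natural killer receptors. Acaca, the carboxylase of the committed step, stayed at 15.8 CPM or below in FMD and 14.7 CPM or below in ad libitum cells. Acss2, which makes acetyl-CoA from acetate, had 24.7 and 20.7 CPM in regulatory T-like cells. Neighboring classes in these orders had overlapping intervals.

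Several enzymes of the mevalonate and sterol branch were highest in plasma-like, germinal center B-like or macrophage or dendritic-like cells. Fdps, which makes farnesyl diphosphate, had 185 CPM in FMD and 158 CPM in ad libitum plasma-like cells, and Ebp, a sterol isomerase, had 122 and 111 CPM there. Dhcr7, of the last step to cholesterol, had 35.9 and 22.4 CPM in plasma-like cells. Cyp51, the lanosterol demethylase, was highest in germinal center B-like cells at 115 and 89.1 CPM. Hmgcs1, the synthase that opens the pathway, had 81.4 and 70.4 CPM there, and Idi1, an isoprenoid isomerase, 76.9 and 52.8 CPM. Pmvk, a mevalonate pathway kinase, had 134 and 129 CPM in macrophage or dendritic-like cells, against 28.3 and 31.0 CPM in B-like cells. Mvd, the decarboxylase after it, had 31.4 and 33.7 CPM in the same cells. The remaining enzymes, Mvk, Fdft1, Sqle, Lss, Nsdhl and Hsd17b7, reached at most 30.9 CPM in FMD in the 12 classes, the highest value being Sqle, the squalene epoxidase, in germinal center B-like cells. Msmo1, a sterol methyl oxidase, was highest in FMD in B-like cells at 63.0 CPM, against 64.8 CPM in ad libitum ones. In ad libitum it was highest in germinal center B-like cells at 68.2 CPM. Sc5d, a sterol desaturase, was highest in FMD in neutrophil-like cells at 84.3 CPM, against 41.5 CPM in ad libitum ones. Neutrophil-like cells had few UMIs, and the FMD interval overlapped that of germinal center B-like cells at 65.6 CPM. In ad libitum Sc5d was highest in innate lymphoid-like cells at 69.0 CPM.

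Of the regulators, Srebf2, the factor best known for sterol genes, was above Srebf1 in UMIs in the 11 classes outside neutrophil-like cells, where counts were few, with 8.31 Srebf2 UMIs per Srebf1 UMI in FMD and 8.92 in ad libitum B-like cells and 1.69 and 1.54 in gamma delta T-like cells. Srebf2 had 181 and 171 CPM in B-like cells and 176 and 172 CPM in germinal center B-like cells. Insig1, itself switched on by SREBP, was highest in plasma-like cells at 169 and 160 CPM, and Insig2, an Insig protein known to be less dependent on SREBP, in germinal center B-like cells at 61.0 and 55.0 CPM. The ratio of Insig1 to Insig2 UMIs was 6.60 in FMD and 5.97 in ad libitum plasma-like cells, 2.22 and 2.09 in B-like cells and 1.15 and 1.34 in germinal center B-like cells. Scap was highest in plasma-like cells, with 23 UMIs in 32 FMD cells and 47 UMIs in 89 ad libitum cells. Stard4, a sterol carrier, was highest in FMD in the T-like class with natural killer receptors at 58.3 CPM, against 37.2 CPM in ad libitum ones. In ad libitum it was highest in innate lymphoid-like cells at 86.3 CPM, from 15 UMIs in 24 cells.

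Summed over all 34 members, the FMD level was slightly above the ad libitum one in most classes, and the differences were small. It was below in CD8 T-like cells (log2 ratio -0.10 [-0.27 to 0.07]) and gamma delta T-like cells (-0.19 [-0.41 to 0.03]). Plasma-like cells had 0.22 [0.10 to 0.34] and germinal center B-like cells 0.15 [0.05 to 0.25]. Innate lymphoid-like cells had 0.20 [-0.05 to 0.46] and neutrophil-like cells 0.20 [-0.26 to 0.66]. In B-like cells the sum was 1924 CPM in FMD and 1789 CPM in ad libitum cells, a log2 ratio of FMD over ad libitum of 0.10 [0.08 to 0.13]. It was 996 and 892 CPM in helper T-like cells (0.16 [0.09 to 0.23]), 1071 and 986 CPM in regulatory T-like cells (0.12 [0.03 to 0.21]) and 872 and 733 CPM in the T-like class with natural killer receptors (0.25 [0.11 to 0.39]). The mixed CD4 and CD8 T-like class gave 884 and 833 CPM and a ratio of 0.09, and macrophage or dendritic-like cells gave 1334 and 1312 CPM and a ratio of 0.02, both with intervals that include 0; the ratio of 0.02 was 0.18 [0.09 to 0.27] without 1 ad libitum cell, described below. In cells thinned to 1000 UMIs the sum in helper T-like cells had a ratio of -0.04, and the median over members was also below 0 there and in regulatory T-like cells. When the cells of a class are summed, the mean level per cell and the number of cells with the transcript cannot be told apart.

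By role, the mevalonate and sterol genes together had a log2 ratio of 0.08 in B-like cells [0.03 to 0.13], 0.18 in helper T-like cells [0.07 to 0.29], 0.10 in regulatory T-like cells [-0.05 to 0.25], 0.35 in mixed CD4 and CD8 T-like cells [0.20 to 0.51] and 0.46 in the T-like class with natural killer receptors [0.21 to 0.72]. It was -0.19 in macrophage or dendritic-like cells [-0.30 to -0.07], a value that 1 cell turns round, as described below. The regulators summed to a ratio of 0.30 in regulatory T-like cells [0.11 to 0.49] and 0.46 in macrophage or dendritic-like cells [0.26 to 0.66]. Fatty acid synthesis genes differed little, with 84.6 CPM in FMD and 77.7 CPM in ad libitum B-like cells (0.12 [0.01 to 0.24]) and with intervals including 0 in the other 5 classes used for ratios.

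**Figure D3:**
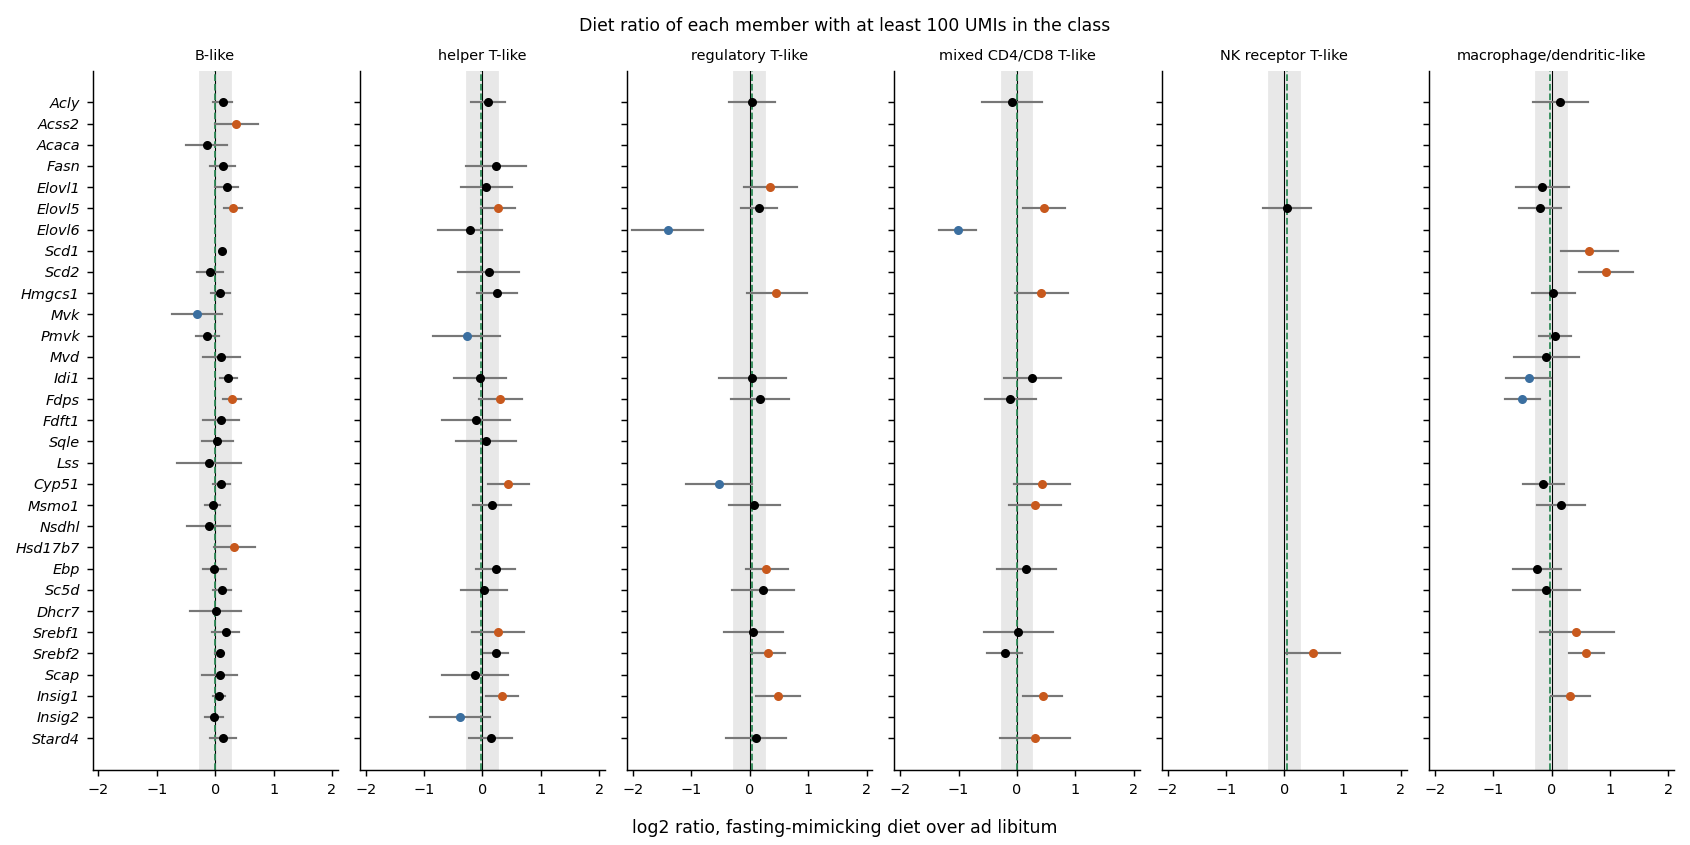
Points are log2 ratios of FMD over ad libitum with exact 95% counting intervals, for members with at least 100 UMIs in the class, in 6 panels, 1 per class. Orange and blue mark members at least 1.2-fold higher and lower in FMD, the gray band is within 1.2-fold and the green dashed line is the median of all genes. Most points lie in or near the band, and Elovl6 in regulatory and mixed CD4 and CD8 T-like cells lies farthest to the left, at -1.40 and -1.01.

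In B-like cells the median log2 ratio over the 31 members with at least 20 UMIs was 0.10, against -0.001 over all genes with at least 20 UMIs, and 22 of the 31 lay above 0. Among the 30 members with at least 100 UMIs, 4 were at least 1.2-fold higher in FMD, where 5.65% of all 8705 genes of that depth were, and 1 was at least 1.2-fold lower, where 7.17% of all genes were. The higher ones were Acss2 with 9.63 and 7.50 CPM (0.36 [-0.00 to 0.73]), the sterol enzyme Hsd17b7 with 10.1 and 8.07 CPM (0.32 [-0.03 to 0.68]), Elovl5 with 51.3 and 41.7 CPM (0.30 [0.14 to 0.45]) and Fdps with 51.8 and 42.5 CPM (0.29 [0.13 to 0.44]). The lower one was Mvk, mevalonate kinase, with 81 UMIs in FMD and 109 in ad libitum cells (-0.30 [-0.74 to 0.12]). Next below it were Acaca at -0.15 and Pmvk at -0.13. Scd1, with 13139 UMIs in FMD and 13159 in ad libitum cells, had a ratio of 0.12 [0.09 to 0.16], or 910 against 837 CPM. The make-up of the class differed. The heat shock cluster, where Scd1 was low, held 444 of 2747 FMD cells and 736 of 3076 ad libitum cells. Within the cluster led by B3gnt7 and Scd1 the Scd1 level was 1144 CPM in FMD and 1170 CPM in ad libitum cells. In the other large B-like clusters described earlier, the heat shock cluster included, the FMD level of Scd1 was above the ad libitum one. The part of make-up in the class ratio was not tested. No member of that depth was 1.5-fold higher or lower, where 0.655% and 0.666% of all genes were.

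In helper T-like cells the median was 0.15 over 30 members, against -0.02 over all genes. The class joins 2 clusters that differed. The one led by Ccl20 and Tnfsf11 (230 FMD and 282 ad libitum cells) had a median of 0.02 and a summed ratio of 0.08 [-0.02 to 0.17]. The one led by Izumo1r and Tnfsf8 (191 and 177 cells) had 0.29 and 0.26 [0.15 to 0.38]. Of 22 members with at least 100 UMIs in the whole class, 5 were at least 1.2-fold higher, where 8.67% of all genes were. Another 2 were at least 1.2-fold lower, where 13.1% of all genes were. Cyp51 had 156 UMIs, or 50.5 CPM, in FMD and 122 UMIs, or 37.3 CPM, in ad libitum cells (0.44 [0.09 to 0.79]), and Insig1 had 250 and 210 UMIs, or 81.0 and 64.2 CPM (0.34 [0.07 to 0.61]). The others were Fdps (0.30), Elovl5 (0.27) and Srebf1 (0.27), each with an interval that includes 0. The lower ones were Insig2 with 18.8 and 24.5 CPM (-0.38 [-0.89 to 0.13]) and Pmvk (-0.27 [-0.85 to 0.31]), and the next was Elovl6 at -0.21. None was 1.5-fold higher or lower, where 0.829% and 1.59% of all genes were. Insig1 and Insig2 thus stood on opposite sides of 0, by intervals of which the second includes 0.

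In regulatory T-like cells the median was 0.13 over 30 members, against 0.04 over all genes. Of 15 members, 5 were at least 1.2-fold higher, where 18.8% of all genes were, and 2 were lower, where 10.3% were. Insig1 had 81.6 CPM in FMD and 58.3 CPM in ad libitum cells (0.49 [0.11 to 0.87]) and Srebf2 had 124 and 99.7 CPM (0.32 [0.03 to 0.61]). Thinned to 1000 UMIs, Srebf2 had a ratio of 0.29 [-0.57 to 1.19] in one draw, while in another a smaller share of FMD cells (9.87%) than of ad libitum cells (13.1%) kept an Srebf2 UMI. Hmgcs1 at 0.46, Elovl1 at 0.35 and Ebp at 0.28 had intervals that include 0. The lower ones were Elovl6, described below, and Cyp51 with 24.7 and 35.6 CPM (-0.53 [-1.09 to 0.04]), followed by Idi1 and Acly, both at 0.04.

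In the mixed CD4 and CD8 T-like class, led by Igfbp4, Lef1 and Dapl1, the median was 0.26 over 29 members, against 0.007 over all genes. Of 13 members, 6 were at least 1.2-fold higher, where 14.1% of all genes were, and 1, Elovl6, was lower, where 11.9% were. Elovl5 had 75.5 CPM in FMD and 54.9 CPM in ad libitum cells (0.46 [0.10 to 0.82]) and Insig1 had 86.9 and 64.2 CPM (0.44 [0.10 to 0.77]). In cells thinned to 1000 UMIs the ratio of Elovl5 was -0.16 [-1.29 to 0.98] in one draw, while in another draw 6.62% of FMD and 3.70% of ad libitum cells kept an Elovl5 UMI. Cyp51 at 0.43, Hmgcs1 at 0.41, Msmo1 at 0.30 and Stard4 at 0.30 had intervals that include 0. Lowest after Elovl6 were Srebf2 with 86.4 and 100 CPM (-0.21 [-0.51 to 0.09]) and Fdps at -0.11. Thus the factor gene Srebf2 was not on the same side as Insig1 and Hmgcs1 here, with its interval including 0. In the T-like class with natural killer receptors only 2 members had 100 UMIs, Srebf2 with 95.3 and 68.0 CPM (0.49 [0.03 to 0.95]), where after thinning 6.82% of FMD and 8.72% of ad libitum cells kept a UMI, and Elovl5 with 103 and 99.8 CPM (0.04), so that 1 of 2 was at least 1.2-fold higher, where 17.5% of all genes were, and 0 were lower, where 10.8% were. Neither was 1.5-fold higher or lower, where 4.2% and 1.49% of all genes were. The median over 25 members was 0.10, against 0.04 over all genes.

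The largest differences among members with at least 100 UMIs were those of Elovl6, the 1 member at least 1.5-fold lower in the mixed CD4 and CD8 T-like class, where 1.38% of all genes were, and in regulatory T-like cells, where 1.79% were. No member was 1.5-fold higher in these classes, where 2.06% and 2.89% of all genes were. In the mixed class Elovl6 had 129 UMIs in 84 of 303 FMD cells and 230 UMIs in 110 of 272 ad libitum cells, or 59.0 and 119 CPM, a log2 ratio of -1.01 [-1.34 to -0.70]. In regulatory T-like cells it had 37 UMIs in 27 of 315 FMD cells and 69 UMIs in 37 of 228 ad libitum cells, or 17.0 and 44.7 CPM (-1.40 [-2.02 to -0.80]). After thinning to 1000 UMIs, 4.30% of FMD and 12.2% of ad libitum cells of the mixed class kept a UMI, against 0.0729% and 0.0978% of B-like cells.

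The difference in the mixed class was seen in each of its larger subsets. Cells with a Cd8a or Cd8b1 UMI and none of Cd4 had 65.9 CPM in FMD and 112 CPM in ad libitum cells (-0.76 [-1.21 to -0.32]), and cells with a Cd4 UMI and none of Cd8 had 43.5 and 99.2 CPM (-1.19 [-1.96 to -0.45]). Cells with neither, 87 in FMD and 73 in ad libitum, had 65.1 and 154 CPM (-1.24 [-1.89 to -0.62]). In regulatory T-like cells the make-up differed by library, since 47.6% of FMD cells and 26.8% of ad libitum cells held a UMI of Il10, an anti-inflammatory cytokine gene. Il10-bearing cells had 8.72 CPM in FMD and 9.44 CPM in ad libitum cells (-0.11 [-1.91 to 2.01]), and cells without it had 26.1 and 58.0 CPM (-1.15 [-1.86 to -0.49]). With cells of at most 10% mitochondrial UMIs, 242 FMD and 153 ad libitum regulatory T-like cells gave a ratio of -0.71 [-1.53 to 0.11], and a thinned draw, with few UMIs, gave 0.28 [-1.32 to 2.02], while in another draw 4 of 304 FMD cells (1.32%) and 10 of 221 ad libitum cells (4.52%) kept an Elovl6 UMI. In helper T-like cells Elovl6 had 17.2 and 19.9 CPM (-0.21 [-0.76 to 0.34]).

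**Figure D4:**
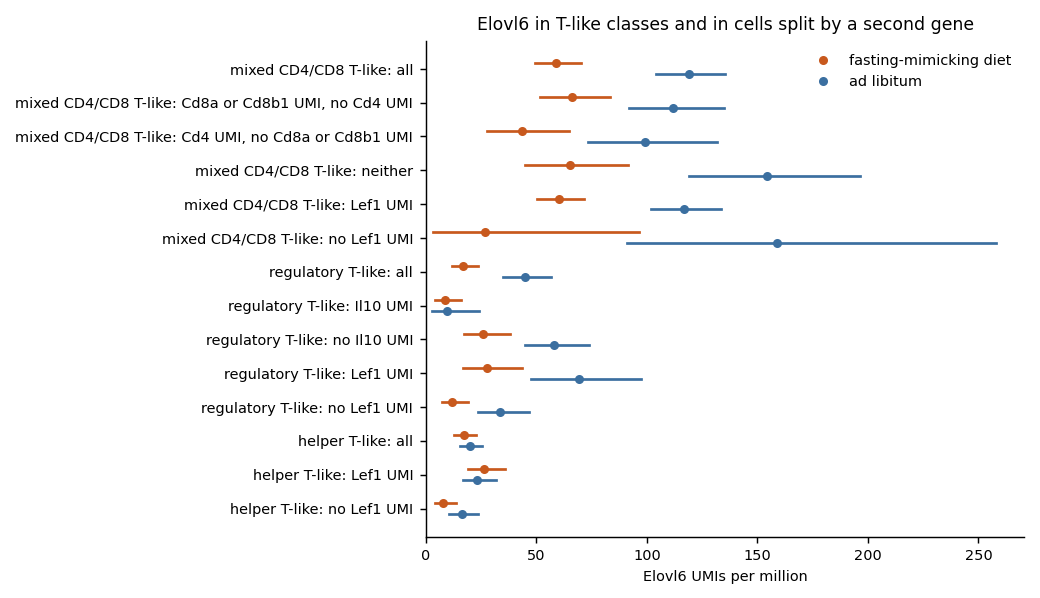
Points are Elovl6 levels in CPM with exact 95% counting intervals, FMD above ad libitum, in 3 T-like classes and in their cells split by UMIs of Cd4, Cd8a or Cd8b1, Lef1 or Il10. FMD lies below ad libitum in the CD4 and CD8 subsets of the mixed class, at 43.5 and 65.9 CPM against 99.2 and 112 CPM. Regulatory T-like cells with Il10 are at 8.72 CPM in FMD and 9.44 CPM in ad libitum. These rest on 10 and 4 UMIs, too few to tell whether the libraries differ there.

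Macrophage or dendritic-like cells, a class of 170 FMD cells and 131 ad libitum cells whose leading genes include Cxcl16, Tgfbi and the keratin gene Krt15, had members on both sides of 0. Of 17 members, 5 were at least 1.2-fold higher, where 16.8% of all genes were, and 2 were lower, where 18.9% were, with a median of -0.09 over 28 members, against -0.03 over all genes; without the 1 cell described below that median was 0.15. Scd2 had 157 UMIs, or 70.5 CPM, in FMD and 53 UMIs, or 37.2 CPM, in ad libitum cells (0.92 [0.47 to 1.40]). Srebf2 had 312 and 133 UMIs, or 140 and 93.3 CPM (0.59 [0.29 to 0.89]), and Scd1 126 and 52 UMIs, or 56.6 and 36.5 CPM (0.63 [0.16 to 1.13]). These 3 were past 1.5-fold, where 3.88% of all genes were, and none was 1.5-fold lower, where 5.57% were. In cells thinned to 1000 UMIs the ratio of Scd1 was -0.92, with few Scd1 UMIs left. The class held 0.906 Scd1 UMIs per Cd79a UMI in FMD and 0.667 in ad libitum, against 0.567 and 0.512 in B-like cells. How much of this Scd1 is free RNA was not tested. Srebf1 at 0.42 and Insig1 at 0.32 had intervals that include 0. The lower members were Fdps with 90.8 and 128 CPM (-0.50 [-0.80 to -0.20]) and Idi1 with 57.1 and 75.1 CPM (-0.40 [-0.78 to -0.01]), followed by Ebp at -0.25.

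The lower Fdps and the lower sterol sum rest on 1 cell. The list of 8 epithelial markers had 101 UMIs in FMD and 652 UMIs in ad libitum cells of this class, with Krt20 at 0 in both. A single ad libitum cell held 577 of the 652, the next highest 7, and the highest FMD cell 15. That cell had 90184 UMIs in all, 1 UMI of Ptprc and 0 of Lyz2, a macrophage gene, and it held 28.4% of the Fdps UMIs and 21.0% of the mevalonate and sterol UMIs of its class. Without it the ratio of Fdps was -0.11 [-0.43 to 0.22], that of Idi1 -0.12 [-0.53 to 0.30] and that of the mevalonate and sterol sum 0.06 [-0.06 to 0.19], while Scd2 stayed at 0.92 [0.45 to 1.41] and Srebf2 at 0.66 [0.35 to 0.98]. Without every cell of at least 3 epithelial UMIs, 11 in FMD and 15 in ad libitum, Fdps was at 0.16 [-0.22 to 0.54], Scd2 at 0.83 [0.29 to 1.39] and Scd1 at 0.46 [-0.04 to 0.98]. In the cells with a UMI of Flt3, a dendritic cell receptor gene, and none of the macrophage gene C1qa, 59 in FMD and 47 in ad libitum, Scd2 had 94.7 and 47.2 CPM (1.00 [0.44 to 1.60]).

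**Figure D5:**
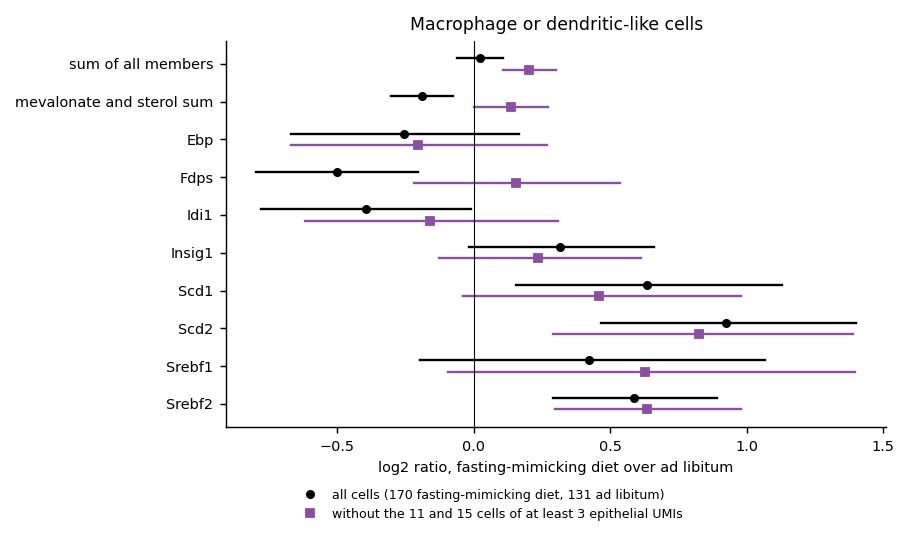
Points are log2 ratios of FMD over ad libitum with exact 95% counting intervals in macrophage or dendritic-like cells, for all cells (black) and without the cells of at least 3 epithelial UMIs (purple). Fdps is at -0.50 with all cells and 0.16 without those cells, and the mevalonate and sterol sum at -0.19 and 0.14, while Scd2, at 0.92 and 0.83, and Srebf2, at 0.59 and 0.63, remain to the right of 0.

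The 35 other genes of the pathway were described in the same way. In B-like cells their median ratio was 0.04 over 24 genes, with 2 of 21 at least 1.2-fold higher, where 5.65% of all genes were, and 1 lower, where 7.17% were. Mlycd, a malonyl-CoA decarboxylase that opposes fatty acid synthesis, had 13.5 CPM in FMD and 10.0 CPM in ad libitum cells (0.43 [0.12 to 0.74]), and Erlin1, of an endoplasmic reticulum complex known to affect SREBP control, had 43.6 and 36.2 CPM (0.27 [0.10 to 0.43]). Lowest were Aacs at -0.32, Mid1ip1, an activator of the acetyl-CoA carboxylase, at -0.25 [-0.47 to -0.03] with 20.6 and 24.5 CPM, and Acat2 at -0.19. In helper T-like cells the median was 0.08 over 21 genes, with Acsl3, an acyl-CoA synthetase, at 22.7 and 14.4 CPM (0.66 [0.11 to 1.22]), then Acsl5 at 0.31 and Tecr at 0.13, and with Mlx at -0.38, Hacd3 at -0.09 and Acsl4 at -0.08 lowest. In regulatory T-like cells the median was -0.12 over 17 genes, on the other side of 0 from the 0.13 of the members. It was 0.19 over 18 genes in mixed CD4 and CD8 T-like cells and 0.25 over 15 in the T-like class with natural killer receptors. In macrophage or dendritic-like cells the median was -0.23 over 19 genes. Of 9 genes there, 1 was at least 1.2-fold higher, where 16.8% of all genes were, and 5 were lower, where 18.9% were. The cell described above belongs to this class.

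Member levels were also split by activation, counted as UMIs of a fixed activation list in cells thinned to 1000 UMIs, without Scd1. B-like cells with at least 3 activation UMIs had 0.976 member UMIs per 1000 UMIs in FMD and 0.929 in ad libitum, against 0.888 in FMD and 0.835 in ad libitum B-like cells with none. Helper T-like cells with at least 3 activation UMIs had 1.06 [0.87 to 1.27] in FMD and 0.702 [0.556 to 0.873] in ad libitum, and those with none had 0.805 [0.648 to 0.989] in FMD and 0.861 [0.713 to 1.03] in ad libitum. The intervals of the libraries overlapped narrowly in activated helper T-like cells. In germinal center B-like cells, those with at least 3 proliferation UMIs had 0.897 in FMD and 1.16 in ad libitum, and those with none had 0.792 and 1.27, with overlapping intervals.

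Across the 9 classes that had 50 cells or more per library, taken in both libraries as 18 points that share library and depth, the genes whose levels followed the sum of all members most closely among 10192 genes were Hspa9 (Pearson r of 0.958), Fgfr1op (0.956), Ghdc and Phc2 (both 0.954), Snx5 (0.945), Gdi2 (0.944), Nfu1 (0.943), Inpp5f (0.934), Fdxacb1 (0.931) and Iqcb1 (0.930). Scd1 weighs heavily in that sum, and without it the closest were Nmt1 (0.973), Ak6 and Psmb6 (both 0.963), while for the mevalonate and sterol steps they were Erp29 (0.892), Tmem131 (0.888) and Ywhae (0.885). Among pairs of members the closest were Scap with Stard4 (0.977), Acaca with Scd2 (0.939), Ebp with Srebf1 (0.929) and Idi1 with Fdps (0.914). The lowest was Acss2 with Pmvk (-0.825). These values describe the spread over classes and give no sign of shared control.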

How the data were processed

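Leukocytes carrying CD45 from colorectal tumors were sequenced in 1 library per diet. The authors deposited raw UMI counts per gene and barcode, written by Cell Ranger 3.1.0 per the file headers, with no normalization. The submitters' processing notes name CASAVA 1.8, Cell Ranger 3.1.0, Seurat 2.3.4 and the assembly GRCm38, without their roles. No barcode held fewer than 500 UMIs.

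Cells with at least 200 genes and at most 20% mitochondrial UMIs were kept. Scrublet marked 2 barcodes per library and thus did not work as a caller; cells with at least 5 UMIs and 0.5 per 1000 of 2 of the B, T and myeloid panels were also removed, 161 in FMD and 107 in ad libitum. Clusters came from scanpy 1.11.5 and leidenalg 0.10.2 (resolution 1, 15 neighbors, 30 components, 2000 variable genes without members) and were named from listed markers. UMIs were summed per class and library, in totals of 28984358 in FMD and 29320272 in ad libitum outside immunoglobulin and mitochondrial genes. Intervals are exact Poisson or conditional binomial (scipy 1.17.1). Calls are descriptions past 1.2-fold or 1.5-fold. Shares and states used cells thinned to 1000 UMIs. In each class of at least 100 cells per library, members past 1.2-fold and the 3 highest and lowest ratios, at 100 UMIs, are named; the same rule named other pathway genes in 2 classes, of which 1 is not reported here. The scripts were tested on simulated data. Members, lists and markers were chosen with earlier results of these data known.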

Additional observations from a re-analysis of the deposited data

Results flagged for a closer look

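Idi1 and Fdps were on opposite sides of 0 in B-like and macrophage or dendritic-like cells, with intervals of both classes excluding 0. Idi1 had a log2 ratio of 0.22 in B-like and -0.40 in macrophage or dendritic-like cells. Fdps had 0.29 in B-like and -0.50 in macrophage or dendritic-like cells. The difference between the classes was not tested, since each diet has 1 library. Without the ad libitum cell of 577 epithelial UMIs the macrophage or dendritic-like ratios were -0.12 for Idi1 and -0.11 for Fdps, and without every cell of at least 3 epithelial UMIs they were -0.16 and 0.16, with intervals that include 0.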

How the results depend on the processing

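Of 247 values of sums, medians and counts under other settings, 216 were close to the reported ones, 21 moved and 10 changed sign; of 441 values of single members 418 were close and 6 changed sign. Thinned to 1000 UMIs, the B-like mevalonate and sterol ratio was 0.18 and the count past 1.2-fold 14; in helper T-like cells the sum was -0.0449, the median -0.0036 and the count 16; in regulatory T-like cells the median was -0.0702 and Elovl6 0.28; Elovl5 was -0.16 in mixed T-like cells; the sterol ratio was 0.73 in the class with natural killer receptors; in macrophage or dendritic-like cells the sum was -0.13, the median 0.0272, the count 14, Fdps 0.21, Idi1 0.44 and Scd1 -0.92. Counts with no minimum of UMIs were 15 in helper, 17 in regulatory, 20 in mixed, 21 in natural killer receptor and 21 in macrophage or dendritic-like cells, and with a minimum of 50 UMIs 12, 14, 7 and 11 in the last 4. All counts here are of members past 1.2-fold, and the share of all genes past it was not computed under these settings. They therefore cannot be read as a result about the members. The thinned ratios of single members named here rest on few UMIs. The regulatory count was 4 at 10% mitochondrial UMIs, and the natural killer receptor count was 0 with members among the variable genes and 0 without doublet removal, where that class shrank to 57 FMD and 28 ad libitum cells and to 60 and 29, too few to read the count. In macrophage or dendritic-like cells, without each gene's top cell, the sum was 0.19, the sterol ratio 0.0392 and the median 0.0699. By alternatives added after seeing the data, these were 0.18, 0.0628 and 0.15 without the ad libitum cell of most epithelial UMIs, and 0.20, 0.14 and 0.16 without every cell of at least 3. The cause was not tested where a setting does not show it. At resolution 0.5 no cluster was named for natural killer receptors. No paired analysis was possible because each diet has 1 library, and no replicate could be left out.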

Other observations

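Targets of the liver X receptors, which sterols switch on and which export or shelter cholesterol, were read beside the members. In regulatory T-like cells Smpdl3a, a phosphodiesterase gene known as such a target, had 181 CPM in FMD and 138 CPM in ad libitum cells, a log2 ratio of 0.40 [0.15 to 0.64], and Abcg1, a cholesterol exporter, had 62.3 and 44.0 CPM (0.50 [0.07 to 0.94]). In macrophage or dendritic-like cells Smpdl3a had 131 and 94.0 CPM (0.48 [0.18 to 0.79]), while Abcg1 had 77.7 and 78.6 CPM (-0.02). In B-like cells Mylip, which marks the LDL receptor for degradation, had 22.8 and 29.1 CPM (-0.35 [-0.56 to -0.15]). The median over the targets with at least 20 UMIs was 0.18 over 5 targets in regulatory T-like cells, against 0.04 over all genes there, and 0.17 over 5 in helper T-like cells. It was -0.02 over 6 targets in B-like cells, -0.08 over 6 in mixed CD4 and CD8 T-like cells and -0.20 over 6 in the T-like class with natural killer receptors. It was -0.10 over 7 in macrophage or dendritic-like cells, against -0.03 over all genes there. The macrophage or dendritic-like values include the ad libitum cell of 577 epithelial UMIs, and values without it are not given. The medians of the other classes lay on both sides of 0, so the classes did not share a direction.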
